A study of Saccharomyces cerevisiae with 17 samples.

Results

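The 8 genes described here carry out the steps between acetaldehyde, acetate and acetyl-CoA in Saccharomyces cerevisiae. They are the aldehyde dehydrogenase genes ALD2, ALD3, ALD4, ALD5 and ALD6, the acetyl-CoA synthetase genes ACS1 and ACS2, and the acetyl-CoA hydrolase gene ACH1. They were chosen by name, with no measured value in the rule, and all 8 were found among the 5449 genes tested. Lager strains are hybrids with a related yeast, and signal from both parental copies of a gene is not told apart. Each gene was read by 1 probe set, and 0 of the 8 probe sets has the suffix used for probe sets that several similar transcripts can bind.

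RNA came from the lager brewing yeast strain CB11, a production strain, at 6 points of a brewery process, and 17 arrays were hybridized. Fermentation was sampled at 8 h (3 arrays), 30 h (2 arrays) and 60 h (3 arrays) from a 3275 hL vessel whose wort had been oxygenated to 25 mg/L and held 0.2 mg/L of zinc sulphate. Propagation was sampled at 0, 8 and 30 h (3 arrays each) from a 140 hL vessel of 17 °Plato wort, supplied with oxygen to keep 7 to 8 mg/L dissolved and with 0.5 mg/L of zinc. Both worts were malt with a sugar adjunct. The fermentation yeast had been used in earlier fermentations, whereas the propagation yeast came from a smaller aerobic propagation vessel. All samples of a stage came from 1 vessel, so the p-values measure only the spread between samples of that vessel, and stage, vessel, oxygen, zinc and yeast history cannot be told apart. Values are log2 probe set summaries, differences are log2 differences of group means, SE is the model's standard error, and a gene is said to rise or fall where its Benjamini-Hochberg adjusted p in limma was under 0.05 over all genes.

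Yeast makes cytosolic acetyl-CoA by a bypass around pyruvate dehydrogenase, in which pyruvate is decarboxylated to acetaldehyde, acetaldehyde is oxidized to acetate, and acetate is joined to coenzyme A at the cost of ATP. This acetyl-CoA feeds the synthesis of fatty acids and sterols, both of which need molecular oxygen at some steps in yeast, and acetate that is not activated leaves the cell and can be tasted in beer. On ethanol or acetate, the same activation step feeds the glyoxylate cycle and gluconeogenesis, and several of the genes concerned are repressed by glucose.

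Some arrays stood apart and touch the values below. The 6 arrays of propagation 8 h and 30 h had correlations across genes of 0.881 to 0.959 with each other, but of 0.369 to 0.563 with the remaining 11. Their hybridization controls read 11.79 to 12.38, against 4.63 to 10.38 on the other arrays, and the median of 15 meiosis and sporulation genes was 7.25 to 8.19, against 4.51 to 6.11. Of those 15 markers, 9 were higher on these 6 arrays without overlap, and the share of all genes that did so was not counted. The median of 6 vegetative growth genes was 9.25 to 9.51 on them and 8.65 to 10.46 on the others, and at propagation 8 h 4 of these 6 genes were lower than at 0 h and 1, the cyclin gene CLN2, was higher. Array A of fermentation 8 h, fermentation 60 h and propagation 0 h had a larger gap between the 3′ and the 5′ signal of control genes (3.10, 3.44 and 4.39) than arrays B and C of the same groups (1.04 to 2.49), and the part of these features in the results was not tested beyond the values given. Fermentation 8 h B and C differed with an SD of 0.123 across genes, where the next closest pair of one group had 0.332, and the titles of fermentation 8 h and 30 h carry an unexplained suffix that cannot be told apart from those groups.

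ALD6 encodes the main cytosolic acetaldehyde dehydrogenase, which makes NADPH as it makes acetate. It read 12.93, 12.87 and 13.11 at fermentation 8 h, 13.07 and 13.10 at 30 h, and 12.93, 13.15 and 13.18 at 60 h. In propagation it read 11.04, 12.43 and 12.51 at 0 h, 7.81, 7.70 and 7.96 at 8 h, and 10.53, 8.84 and 9.24 at 30 h. All 8 fermentation arrays were above all 9 propagation arrays, and the 3 propagation times did not overlap one another. Among the genes of each array, a position that also depends on how strongly a probe set responds, ALD6 stood at percentile 99.45 or above in fermentation, between 96.48 and 98.59 at propagation 0 h, between 52.73 and 59.55 at 8 h and between 75.87 and 96.00 at 30 h.

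ALD4 encodes the major mitochondrial acetaldehyde dehydrogenase, and it followed the same order of groups. It read 12.34, 12.53 and 12.52 at fermentation 8 h, 12.96 and 12.62 at 30 h, and 12.60, 13.03 and 12.98 at 60 h. The propagation arrays gave 11.13, 12.06 and 12.20 at 0 h, 9.64, 9.42 and 9.25 at 8 h, and 10.53, 10.20 and 10.36 at 30 h. Only fermentation 30 h and 60 h overlapped, the lowest fermentation array (12.34) lay just above the highest of propagation 0 h (12.20), and propagation 8 h was lowest on every array.

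ALD5 encodes a minor mitochondrial aldehyde dehydrogenase. It read 6.40, 6.43 and 6.17 at fermentation 8 h, 6.28 and 6.19 at 30 h, and 6.65, 7.16 and 7.19 at 60 h. The propagation values were 6.17, 6.94 and 7.18 at 0 h, 4.30, 3.82 and 4.12 at 8 h, and 5.28, 4.91 and 5.14 at 30 h. Its fermentation arrays (6.17 to 7.19) and propagation 0 h arrays (6.17 to 7.18) covered the same range, and the later propagation arrays lay below both. At propagation 8 h it was within background, because 22.2%, 42.8% and 36.5% of the probe sets for another species read at least as high on those arrays, so a value for this group is an upper limit set by the background. A gene is called within background in a group where it lay below percentile 95 of those probe sets on every array, and a difference from such a group is given as "at least" its distance from that floor. At propagation 30 h ALD5 was below the floor on 1 of 3 arrays.

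ALD2 and ALD3, neighbours on the same chromosome with no annotated gene between them, encode similar cytosolic aldehyde dehydrogenases known for induction by stress and for a step that makes beta-alanine for coenzyme A. ALD2 read 9.71, 9.08 and 9.10 at fermentation 8 h, 9.68 and 9.42 at 30 h, and 10.10, 9.82 and 9.61 at 60 h, against 8.89, 7.49 and 7.67 at propagation 0 h, 7.59, 7.67 and 7.72 at 8 h, and 7.49, 8.15 and 7.70 at 30 h. ALD3 read 9.46, 8.48 and 8.51 at fermentation 8 h, 9.63 and 9.14 at 30 h, and 9.64, 8.99 and 9.00 at 60 h, against 7.62, 5.63 and 5.72 at propagation 0 h, 6.79, 7.01 and 6.43 at 8 h, and 6.95, 7.35 and 6.77 at 30 h. For both genes every fermentation array was above every propagation array, and within each stage the neighbouring groups overlapped. In all 3 groups with a large 3′ to 5′ gap, array A was the highest for both genes. Cross-hybridization between these similar genes was not tested.

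ACS1 encodes the acetyl-CoA synthetase that glucose represses, known for growth on ethanol and acetate. It read 9.21, 9.25 and 9.28 at fermentation 8 h, 10.35 and 9.34 at 30 h, and 11.33, 11.97 and 11.74 at 60 h. The propagation arrays gave 8.51, 9.27 and 9.52 at 0 h, 8.04, 7.61 and 7.80 at 8 h, and 8.51, 8.49 and 8.53 at 30 h. Fermentation 60 h stood above every other array, and both arrays of fermentation 30 h lay between 8 h and 60 h, 1 of them close to 8 h. Fermentation 8 h and propagation 0 h overlapped, with means of 9.25 ± 0.0312 and 9.10 ± 0.529 (SD, n = 3 each).

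ACS2 encodes the other acetyl-CoA synthetase, which is made on glucose and is essential there. It read 10.81, 11.54 and 11.52 at fermentation 8 h, 11.86 and 11.64 at 30 h, and 10.87, 11.56 and 11.62 at 60 h. The propagation arrays gave 8.16, 10.45 and 10.67 at 0 h, 8.13, 7.44 and 7.97 at 8 h, and 7.32, 6.94 and 7.36 at 30 h. Fermentation was above propagation throughout, and the 3 propagation times were in falling order without overlap, although array A of propagation 0 h (8.16) lay far from B and C and next to propagation 8 h.

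ACH1 encodes a mitochondrial enzyme that moves coenzyme A between acetyl-CoA and other acids and frees acetate. It read 8.84, 10.44 and 10.56 at fermentation 8 h, 11.39 and 10.83 at 30 h, and 9.00, 10.42 and 11.27 at 60 h. The propagation arrays gave 7.35, 9.36 and 8.74 at 0 h, 7.39, 7.80 and 7.84 at 8 h, and 7.15, 7.85 and 8.04 at 30 h. Neighbouring groups overlapped at every step of the order, and array A was the lowest in each group that has one. The SD was 0.961 at fermentation 8 h and 1.15 at 60 h, wider than for any other of the 8 genes in those groups.

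**Figure D1:**
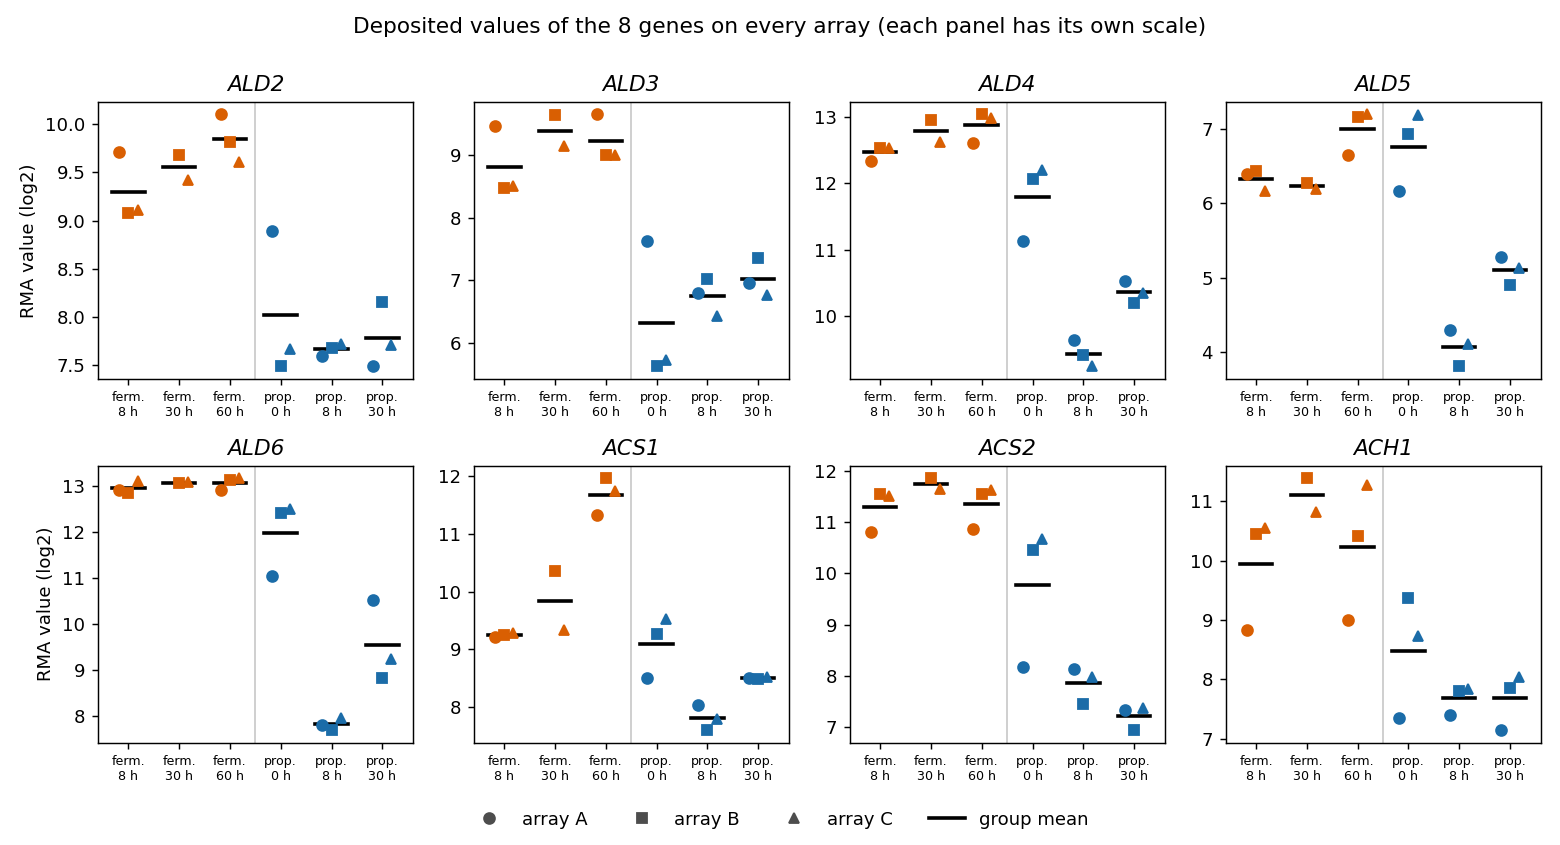
Deposited RMA value (log2, vertical axis, its own scale in each panel) of each of the 8 genes on every array, by stage and time, with circles, squares and triangles for arrays A, B and C and a bar for the group mean. For ALD2, ALD3, ALD4, ALD6 and ACS2 every fermentation array lies above every propagation array, and ACS1 climbs to 11.33 to 11.97 at fermentation 60 h.

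During fermentation, the acetyl-CoA synthetase gene ACS1 rose late, and none of the other 7 genes passed the test. From the 8 h group, ACS1 was higher at 60 h by 2.43 (SE 0.289, 5.4-fold, limma adjusted p = 5e-05), which placed it at percentile 95.16 to 97.58 of the genes at 60 h, against 75.22 to 76.97 at 8 h. Its difference was the 38th in size among all genes of this comparison. The aldehyde dehydrogenase genes ALD6 and ALD4 differed between 60 h and 8 h by 0.12 and 0.41 with adjusted p of 0.884 and 0.335. ACS2, the second synthetase, differed by 0.06 (SE 0.475, adjusted p = 0.953).

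Of the 8 genes, 1 was higher and 0 were lower at 60 h than at 8 h, where 9.21% of all genes were higher and 6.64% lower, and the median difference was 0.40 for the 8 genes and 0.08 for all genes. Among all calls, 58.1% were higher, and 45.1% were higher when each array was recentred on its median gene. ALD5 differed by 0.67 without overlap of the arrays and missed the threshold (SE 0.259, adjusted p = 0.0913), and it passed without the 3 arrays of large 3′ to 5′ gap (0.88, adjusted p = 0.0119). ALD2, ALD3 and ACH1 gave 0.55, 0.40 and 0.28, with adjusted p from 0.275 to 0.793.

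ACS1 also rose over the second interval of this course. Between 60 h and 30 h it was higher by 1.83 (SE 0.323, 3.56-fold, limma adjusted p = 0.0049), the 1 of the 8 genes higher and with 0 lower, where 2.84% of all genes were higher and 1.47% lower. The median difference was 0.04 for the 8 genes and 0.14 for all genes, and 66.0% of the calls were higher as deposited against 35.6% after recentring. The 30 h group has 2 arrays, and without its array C the ACS1 difference was 1.33 with an adjusted p of 0.257, in a fit that called 2 of all genes.

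Between 30 h and 8 h of fermentation none of the 8 genes passed the test, and neither did any gene of the array (0% called by limma, with 189 genes at an unadjusted p under 0.05, none of them among the 8). The median difference was 0.39 for the 8 genes and -0.07 for all genes. ACH1 differed most, by 1.16 (SE 0.632), followed by ACS1 with 0.60 (SE 0.323) and ALD3 with 0.57 (SE 0.479), all at an adjusted p of 1. The arrays were higher at 30 h without overlap for ALD4, ACS1, ACS2 and ACH1, 4 of the 8, where 12.6% of all genes were higher and 24.7% lower in that way.

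Set against yeast just placed in the propagation vessel, fermenting yeast had more RNA for the stress-inducible dehydrogenases at 8 h and for nearly all of the 8 genes at 60 h. At fermentation 8 h, ALD3 was higher by 2.49 (SE 0.429, 5.62-fold, limma adjusted p = 0.000393), ACS2 by 1.53 (SE 0.475, adjusted p = 0.0241) and ALD2 by 1.28 (SE 0.317, adjusted p = 0.00636). These 3 of 8 were higher and 0 were lower, where 16.5% of all genes were higher and 11.5% lower, and the median difference was 1.13 for the 8 genes and 0.11 for all. ALD6 (0.98, adjusted p = 0.0704), ALD4 (0.67, adjusted p = 0.0677) and ACH1 (1.46, adjusted p = 0.064) did not pass, nor did ALD5 (-0.43, adjusted p = 0.241) and ACS1 (0.14, adjusted p = 0.763). Each array reads the RNA of a whole sample, so a change in the share of cells in some state and a change in RNA per cell cannot be told apart.

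The ACS2 call depended on the arrays used. It was kept when the arrays were weighted, where fermentation 8 h B and C had weights of 11.2 and 8.4 and propagation 0 h A had 0.0627. It was also kept without the 3 arrays of large 3′ to 5′ gap, propagation 0 h A among them. With only propagation 0 h A left out, the ACS2 difference was 0.73 with an adjusted p of 0.0586. The call was also lost when fermentation 8 h B and C were averaged as 1 array (1.41, adjusted p = 0.084) and when the arrays of propagation 8 h and 30 h were left out of the fit (adjusted p = 0.0685). It was lost without fermentation 8 h B or C as well (1.40 and 1.41, adjusted p of 0.085 and 0.0829), and ALD5 passed without propagation 0 h A (-0.73, adjusted p = 0.0183). ACH1 passed without fermentation 8 h A (2.02, adjusted p = 0.0188) or propagation 0 h B (1.90, adjusted p = 0.0282), and ALD4 and ALD6 passed without propagation 0 h C (0.87 and 1.23, adjusted p of 0.0311 and 0.041). When only the groups compared were fitted, the calls of ALD2 and ACS2 were lost (limma adjusted p of 0.0842 and 0.171), and ALD3 kept its call.

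By fermentation 60 h, 7 of the 8 genes were higher than at propagation 0 h and 0 were lower, where 25.3% of all genes were higher and 15.7% lower. ALD3 was higher by 2.89 (SE 0.429, 7.41-fold, limma adjusted p = 6.45e-05), ACS1 by 2.58 (SE 0.289, 5.96-fold, adjusted p = 5.41e-06) and ALD2 by 1.83 (SE 0.317, adjusted p = 0.000269). The other 4 that rose were ACH1 (1.75), ACS2 (1.59), ALD6 (1.09) and ALD4 (1.07), with adjusted p from 0.00372 to 0.0326, and these 4 calls were lost when only the 2 groups compared were fitted (adjusted p from 0.0596 to 0.115). ALD5 was the exception, with 0.24 (SE 0.259, adjusted p = 0.488).

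The median difference here was 1.67 for the 8 genes and 0.18 for all genes, and the share of calls that were higher was 61.7% as deposited and 49.8% after recentring. Without propagation 0 h A the differences of ALD6 and ACH1 were 0.61 and 1.18 with adjusted p of 0.134 and 0.078, that of ACS2 was 0.79 and still passed, and ALD6 also missed the threshold after recentring (0.92, adjusted p = 0.0643). The calls of ALD6 and ACH1 were also lost without fermentation 60 h B (adjusted p of 0.0843 and 0.0657) or C (0.0832 and 0.117), and ACS2 missed the threshold without C (1.45, adjusted p = 0.0508). Both comparisons with propagation 0 h share those 3 arrays.

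Within propagation, 5 of the 8 genes were lower at 8 h than at 0 h, namely ALD4, ALD5, ALD6 and both synthetase genes. ALD6 fell by 4.17 (SE 0.387, 18-fold, limma adjusted p = 1e-07) and ALD4 by 2.36 (SE 0.262, adjusted p = 6.88e-07). ALD5, within background at 8 h, was lower by at least 1.30 (2.47-fold, adjusted p = 1.52e-07). Both synthetase genes fell as well, ACS2 by 1.92 (SE 0.475, adjusted p = 0.00189) and ACS1 by 1.28 (SE 0.289, adjusted p = 0.000859). The stress-inducible ALD2 and ALD3 gave -0.35 and 0.42 with adjusted p of 0.337 and 0.394, and ACH1 gave -0.81 with 0.219.

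This made 0 of the 8 higher and 5 lower, in a comparison where 24.3% of all genes were higher and 43.1% lower, so that a fall was the most common outcome among all genes. The median difference was -1.60 for the 8 genes (-1.29 with ALD5 at its limit) and -0.44 for all genes, and 36.1% of the calls were higher as deposited, against 47.0% after recentring. All arrays of propagation 8 h belong to the 6 that stand apart, and the part of that feature in these falls was not tested. Without propagation 0 h A, ALD3 was higher at 8 h by 1.07 (adjusted p = 0.00472) and ACH1 lower, at -1.37 (adjusted p = 0.0293).

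At propagation 30 h, ALD4 and ALD6 lay between their 0 h and 8 h levels without overlap, whereas ACS2 had its lowest level. The means of ALD2 and ACS1 also lay between, with overlapping arrays. The ALD3 mean was above those of both earlier times, but propagation 0 h A (7.62) lay above every 30 h array. Neither ALD3 difference passed the test. Relative to 0 h, ACS2 fell by 2.55 (SE 0.475, 5.87-fold, limma adjusted p = 0.00015), ALD6 by 2.46 (SE 0.387, 5.49-fold, adjusted p = 2.81e-05), ALD5 by 1.65 (SE 0.259, adjusted p = 2.72e-05) and ALD4 by 1.44 (SE 0.262, adjusted p = 0.000124). These 4 of 8 were lower and 0 were higher, where 38.7% of all genes were lower and 28.6% higher, and the medians were -1.12 and -0.25. ACS1 gave -0.59 (adjusted p = 0.0785), which became -0.89 without propagation 0 h A (adjusted p = 0.00604), and ALD3 gave 0.70 (adjusted p = 0.158), which became 1.35 (adjusted p = 0.00078), as ACH1 became -1.37 (adjusted p = 0.029).

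From the 8 h to the 30 h propagation samples, 2 of the 8 genes passed the test as higher and 0 as lower, where 3.08% of all genes were higher and 1.93% lower. ALD6 was higher at 30 h by 1.72 (SE 0.387, 3.29-fold, limma adjusted p = 0.016). ALD5 passed as well (adjusted p = 0.0303), but its mean at 30 h (5.11) was below the floor of the 8 h arrays (5.30 to 5.63), so no size of that difference is given. ALD4 gave 0.93 with an adjusted p of 0.051, and ACS2 gave -0.64 with 0.51. The median difference was 0.48 for the 8 genes (0.20 with ALD5 set to 0) and 0.16 for all genes.

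Both calls depend on single arrays. Propagation 30 h A reads 10.53 for ALD6 against 8.84 and 9.24 on B and C, and without it the difference was 1.22 with an adjusted p of 0.0608, while without propagation 8 h B it was 1.65 with 0.0563. ALD5 missed the threshold without propagation 8 h B or C, without any 1 array of 30 h (adjusted p from 0.0512 to 0.112 over these), and after recentring (adjusted p = 0.0552), where the share of all calls that were higher was 31.9% against 61.5% as deposited.

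**Figure D2:**
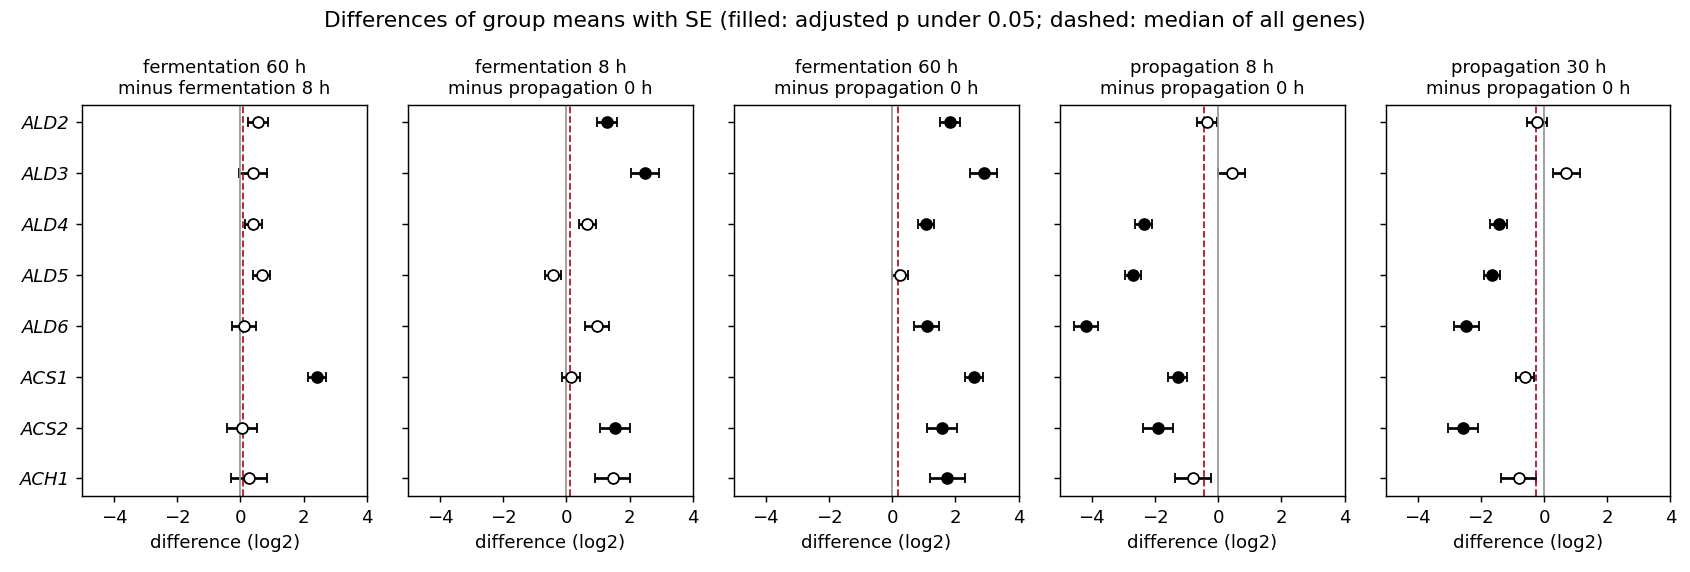
Difference of group means (log2, horizontal axis) of the 8 genes in 5 comparisons, with bars for the SE, filled points for an adjusted p under 0.05 and a dashed line at the median of all genes. ACS1 is the 1 filled point for fermentation 60 h against 8 h, and ALD6 lies lowest, at -4.17, for propagation 8 h against 0 h, where the point of ALD5 is a fitted value against a group within background.

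At matched times the 8 genes were all higher in fermentation. At 8 h, ALD6 was higher in fermentation by 5.15 (SE 0.387, 35.5-fold, limma adjusted p = 8.83e-09), the 19th largest difference of all genes, ACS2 by 3.44 (SE 0.475, 10.9-fold, adjusted p = 6.6e-06) and ALD4 by 3.03 (SE 0.262, 8.15-fold, adjusted p = 3.63e-08). ALD5 was higher by at least 0.87 (1.83-fold, adjusted p = 8.45e-07), and the other 4 differed by 1.43 (ACS1) to 2.27 (ACH1), with adjusted p of 0.00187 or less. In this comparison 44.7% of all genes were higher and 24.4% lower. The arrays of all 8 were higher without overlap, where 49.1% of all genes were higher and 28% lower in that way.

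At 30 h the largest difference was that of ACS2, 4.54 (SE 0.531, 23.3-fold, limma adjusted p = 1.22e-06), followed by ALD6 with 3.54 (SE 0.432, 11.7-fold, adjusted p = 1.98e-06) and ACH1 with 3.43 (SE 0.632, 10.8-fold, adjusted p = 0.000147). All 8 were higher again, where 37.5% of all genes were higher and 27.9% lower. ACS1, with 1.34 (SE 0.323, adjusted p = 0.00158), was 0.83 with an adjusted p of 0.0688 without fermentation 30 h B. The median difference of the 8 genes was 2.26 at 8 h (2.17 with ALD5 at its limit) and 2.39 at 30 h, and that of all genes 0.49 and 0.24. At 8 h 64.7% of the calls were higher, and 52.8% after recentring. The propagation arrays of both comparisons are the 6 that stand apart, so stage and that feature cannot be told apart here.

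Whether the change between 8 h and 30 h differed between the stages was tested directly, as the fermentation change minus the propagation change. None of the 8 genes passed, and 0.275% of all genes did. ALD6 gave -1.61 (SE 0.58, limma adjusted p = 0.283) and ALD5, within background in 1 of the 4 groups used, gave -1.13 (SE 0.389, adjusted p = 0.255), and these were the 2 members at an unadjusted p under 0.05. ACH1 and ACS2 gave 1.16 and 1.10 with adjusted p of 0.67 and 0.629, and the medians were 0.02 for the 8 genes and -0.22 for all. Of the 15 genes called, 46.7% were positive as deposited and 76.9% of those called after recentring.

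Differences between related genes on the same array show whether they changed alike, since a shift common to the array cancels. The 3 pairs given were chosen after their values were seen, and with 3 arrays a group, or 3 and 2, no exact permutation p (two-sided) could fall below 0.1, the smallest the design allows. ACS1 minus ACS2 was 0.33 ± 0.182 at fermentation 60 h and -2.05 ± 0.39 at 8 h (SD, n = 3 each), 2.37 apart without overlap, as ACS1 rose and ACS2 did not pass the test. It was also higher at propagation 30 h (1.30 ± 0.217) than at 0 h (-0.66 ± 0.871), where ACS2 fell and ACS1 did not pass the test. On propagation 0 h A the difference between the 2 genes was 0.34, against -1.18 and -1.15 on B and C.

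ALD6 minus ALD4, which sets the cytosolic NADP-linked enzyme against the mitochondrial one, was 0.51, 0.29 and 0.22 at fermentation 8, 30 and 60 h. At propagation 8 h it was -1.62 ± 0.285, against 0.20 ± 0.249 at 0 h, without overlap, so ALD6 fell further than ALD4. ALD3 minus ALD2 was -0.48 ± 0.198 at fermentation 8 h and -1.69 ± 0.367 at propagation 0 h, 1.21 apart without overlap, and the difference between fermentation 60 h (-0.63 ± 0.186) and propagation 0 h was 1.06, also without overlap. The exact permutation p was 0.1 for each pair of groups set against each other here, which were picked from more comparisons. Others gave a larger exact permutation p. For ALD6 minus ALD4 it was 0.2 between propagation 30 h and 0 h, with overlap, and 0.2 between fermentation 30 h and propagation 30 h, without overlap. It was also 0.2 for ACS1 minus ACS2 between fermentation 60 h and propagation 0 h, with overlap.

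**Figure D3:**
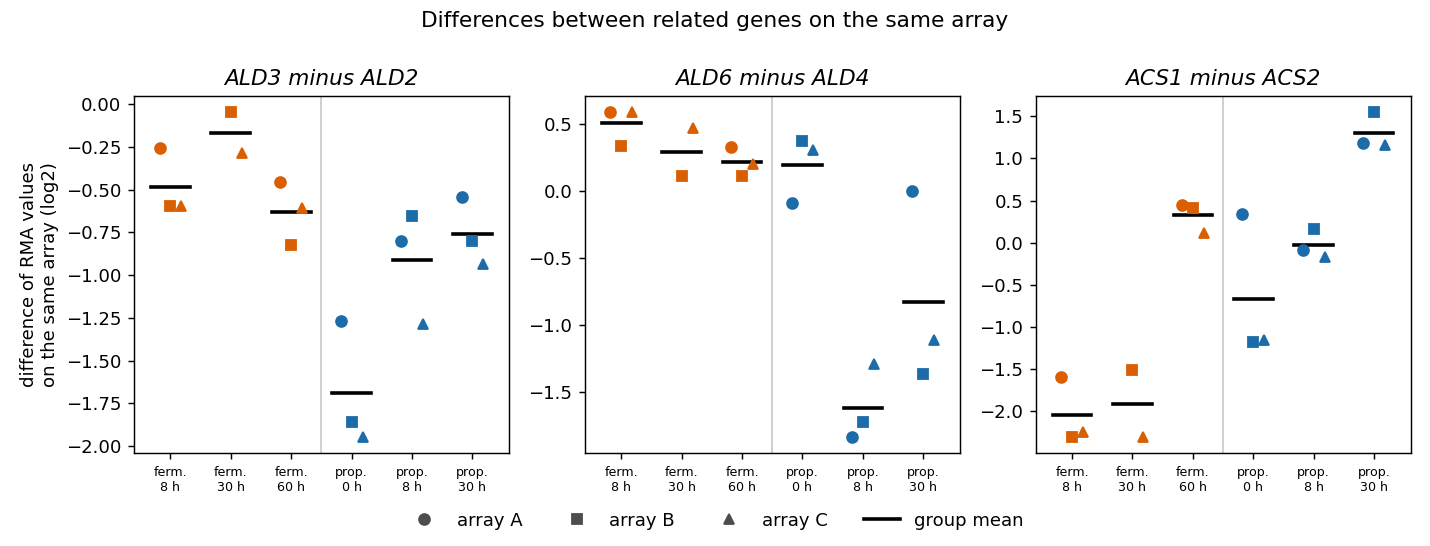
Differences between the RMA values of related genes on the same array (log2, vertical axis, its own scale in each panel), for ALD3 minus ALD2, ALD6 minus ALD4 and ACS1 minus ACS2, by stage and time, with a bar for the group mean. ACS1 minus ACS2 is near -2 at fermentation 8 h and 30 h and above 0 at 60 h, and ALD6 minus ALD4 is lowest at propagation 8 h.

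Array A departed from the mean of B and C in one direction for 7 of the 8 genes in fermentation 8 h, fermentation 60 h and propagation 0 h. ACH1 differed by -1.66, -1.85 and -1.70 in these groups and ACS2 by -0.72, -0.72 and -2.40, whereas ALD3 differed by 0.96, 0.65 and 1.95 and ALD2 by 0.62, 0.39 and 1.31. The SD of the same departure over all genes was 0.499, 0.573 and 1.11. For ALD4, ALD6 and ACS1 array A was below the mean of B and C in each group, from -0.05 to -0.19 at fermentation 8 h and from -0.89 to -1.43 at propagation 0 h, and ALD5 was at 0.09 in fermentation 8 h and at -0.52 and -0.89 in the other two.

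**Figure D4:**
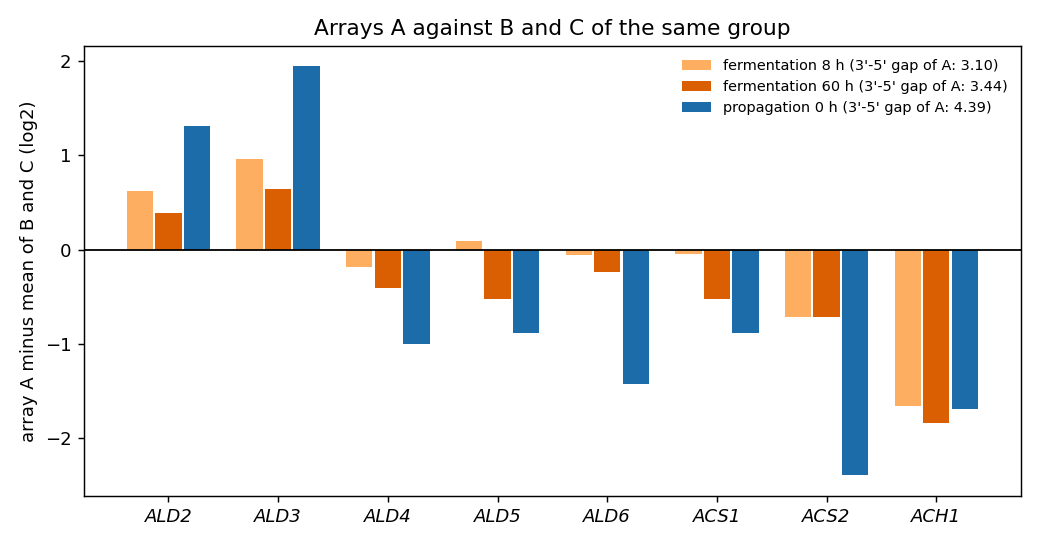
Value on array A minus the mean of arrays B and C of the same group (log2, vertical axis) for the 8 genes in fermentation 8 h, fermentation 60 h and propagation 0 h, with the 3′ to 5′ control gap of array A in the legend. ACH1 and ACS2 lie below 0 and ALD2 and ALD3 above 0 in all 3 groups.

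The genes around these steps were counted in 11 lists. Between fermentation 60 h and 8 h, when ACS1 rose, 4 of 8 genes of the glyoxylate cycle and gluconeogenesis were higher and 0 lower, with a list median of 1.24 against 0.08 for all genes, of which 9.21% were higher and 6.64% lower. They include the malate synthase gene MLS1 (1.84, limma adjusted p = 0.000703), the succinate and fumarate carrier gene SFC1 (1.61, adjusted p = 0.00173, with 1 of 3 arrays at 8 h below the floor) and the PEP carboxykinase gene PCK1 (1.46, adjusted p = 0.00451). The isocitrate lyase gene ICL1 gave 0.47 and did not pass (adjusted p = 0.378). ADH2, the alcohol dehydrogenase that oxidizes ethanol, was higher by 1.81 (adjusted p = 0.00079), 1 of 2 higher and 0 lower among 5 genes of acetaldehyde reduction.

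In the same comparison 2 of 5 carnitine shuttle genes were higher and 0 lower, namely CRC1 (1.80) and CAT2 (1.24), which take part in moving acetyl units into mitochondria. Of 6 further genes that supply NADPH, GND2 (1.87) and IDP3 (1.25) were higher and 0 were lower. Of 5 transport genes 1 was higher, ATO2 (1.35), and 1 lower, the lactate and pyruvate permease gene JEN1 (-0.95). The lists of other aldehyde dehydrogenases (HFD1, 0.84), coenzyme A (CAB1, 0.96) and regulators (STB5, 1.01) had 1 higher and 0 lower each, of 4, 10 and 10 genes. For coenzyme A and regulators that is near the 9.21% of all genes that were higher. None of the 3 pyruvate decarboxylase genes, the 8 pyruvate dehydrogenase and carrier genes or the 5 genes that use cytosolic acetyl-CoA passed.

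Between fermentation 8 h and propagation 0 h the glyoxylate list went the other way from the members, with 5 of 8 lower and 1 higher. Of all genes 16.5% were higher and 11.5% lower, and the counts of the lists in this comparison stand beside those shares. PCK1 differed by -3.54 (limma adjusted p = 1.11e-06), with SFC1 at -2.29 and FBP1, the fructose bisphosphatase gene, at -1.49, and the peroxisomal citrate synthase gene CIT2 was the 1 higher (0.81). The 4 other aldehyde dehydrogenase genes were all higher, among them PUT2 (1.55), MSC7 (1.39) and UGA2 (1.07). The fatty acid synthesis genes FAS2 (2.46), ACC1 (2.43) and FAS1 (1.41), which draw on acetyl-CoA, made 3 of 5 higher and 0 lower.

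Upstream of the members at fermentation 8 h, 2 of 3 pyruvate decarboxylase genes were higher than at propagation 0 h, PDC1 (1.72) and PDC5 (1.17), and 4 of 8 pyruvate dehydrogenase and carrier genes, led by PDA1 (1.70), LAT1 (1.39) and PDB1 (0.90), with 0 lower in either list. The regulators CAT8 (1.66) and ADR1 (1.47), activators of genes for ethanol and acetate use, were 2 of 10 higher and 0 lower. Of the remaining lists, acetaldehyde reduction had 2 of 5 higher, led by ADH4 (3.23), transport 2 of 5, carnitine 1 of 5, coenzyme A 3 of 10 and NADPH 3 of 6, with 0 lower in each. The counts of regulators and of the carnitine list are near the 16.5% of all genes that were higher.

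By fermentation 60 h the 5 genes that use cytosolic acetyl-CoA were all higher than at propagation 0 h, led by ACC1 (2.47), FAS2 (2.24) and FAS1 (1.59), and so were all 3 pyruvate decarboxylase genes, led by PDC6 (2.26), where 25.3% of all genes were higher and 15.7% lower. The NADPH list had 5 of 6 higher, led by GND2 (2.98), IDP3 (2.47) and ZWF1 (2.10), and 1 lower, GND1 (-1.14). The glyoxylate list had 1 higher, MLS1 (1.41), and 1 lower, PCK1 (-2.09). Higher and lower counts were 3 and 0 of 5 for acetaldehyde reduction, 4 and 0 of 8 for pyruvate dehydrogenase and carrier, 3 and 0 of 4 for other aldehyde dehydrogenases, 2 and 0 of 5 for transport, 3 and 0 of 5 for the carnitine shuttle, 3 and 2 of 10 for coenzyme A and 3 and 1 of 10 for regulators, and those of transport, coenzyme A and regulators are near the shares of all genes.

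At propagation 8 h the glyoxylate list fell with the members, 7 of 8 lower than at 0 h and 0 higher, where 43.1% of all genes were lower and 24.3% higher. IDP2, the cytosolic NADP-linked isocitrate dehydrogenase gene, and ICL1 were within background at 8 h and lower by at least 5.27 (38.5-fold, limma adjusted p = 1.75e-09) and at least 2.74 (6.66-fold), and PCK1 gave -3.10. The pyruvate dehydrogenase and carrier list had 6 of 8 lower, led by MPC3 (-3.65), MPC2 (-3.37) and PDB1 (-2.50), and 1 higher, MPC1 (0.79). ERG10, whose product joins acetyl-CoA units at the start of sterol synthesis, was lower at -3.89, 1 of 3 lower and 0 higher among 5. Of the NADPH list 4 of 6 were lower and 0 higher. Higher and lower counts in the remaining lists were 1 and 0 of 3 for pyruvate decarboxylase, 1 and 3 of 5 for acetaldehyde reduction, 0 and 2 of 4 for other aldehyde dehydrogenases, 2 and 1 of 5 for transport, 1 and 1 of 5 for the carnitine shuttle, 2 and 3 of 10 for coenzyme A and 2 and 0 of 10 for regulators, and several of these are near the shares of all genes. The meiosis markers moved with these falls in the opposite direction, 13 of 15 higher and 0 lower.

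**Figure D5:**
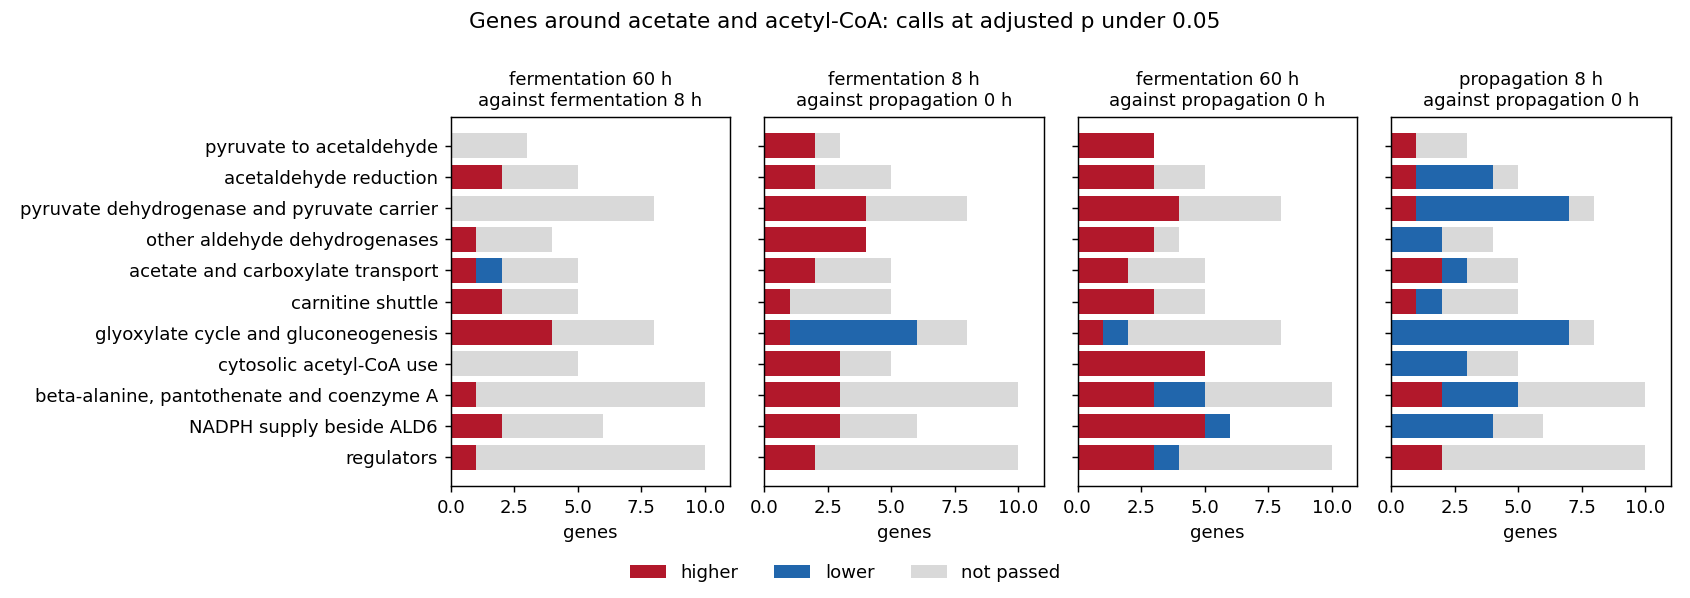
Number of genes (horizontal axis) of each of 11 lists around acetate and acetyl-CoA that were higher, lower or did not pass at an adjusted p under 0.05, in 4 comparisons. The glyoxylate cycle and gluconeogenesis list has 4 of 8 higher at fermentation 60 h against 8 h, 5 of 8 lower at fermentation 8 h against propagation 0 h and 7 of 8 lower at propagation 8 h against 0 h.

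The genes whose pattern was most like each member were taken by Pearson correlation over 11 arrays, those of fermentation and of propagation 0 h. These arrays fall into 4 groups and share the array platform and normalization, so the values describe likeness and carry no test. ALD6 was most like LSC1, LAT1 and PDA1 (0.99, 0.99 and 0.987), ALD4 like SDH3, TSA2 and ZAP1 (0.989, 0.984 and 0.984), and ALD5 like FRE6, SWM1 and CCT6 (0.964, 0.925 and 0.919). ALD2 was most like SPG1, PKH1 and STF1 (0.99, 0.986 and 0.985) and ALD3 like YJL070C, STF1 and FMP16 (0.988, 0.987 and 0.984).

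For the synthetases, ACS1 was most like INO1, SNZ1 and FZF1 (0.98, 0.979 and 0.977) and ACS2 like YMR315W, RUP1 and HMG1 (0.992, 0.991 and 0.99), of which HMG1 encodes an HMG-CoA reductase of sterol synthesis. ACH1 was most like PRY1, APE1 and PUT4 (0.99, 0.983 and 0.975). With all 17 arrays most of these values stayed high, such as 0.969 for ACS1 and INO1, but they were 0.141 for ALD4 and TSA2, -0.38 for ALD5 and SWM1 and -0.181 for ACS1 and FZF1. Between members over the 11 arrays, the correlation ran from -0.382 for ALD3 with ALD5 to 0.979 for ALD2 with ALD3, with 0.969 for ALD6 with ACS2 and 0.945 for ALD4 with both ALD6 and ACS2.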

How the data were processed

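The values are log2 expression summaries that the authors deposited for 10928 probe sets on 17 Affymetrix arrays, and the submitters' processing notes name RMA, with no version and no statement of which arrays were normalized together. They ran from 2.17 to 14.07, with array medians from 4.99 to 5.46, and were used as deposited. Of the probe sets, 5498 carry an S. cerevisiae gene and 1746 a gene of another species, which served as background, and differences from groups within it were bounded by their percentile 95 on each array, a limit added after the values were seen. A gene with several probe sets (47 genes) kept the one with the highest mean, leaving 5449 genes with no filter. For arrays, their number limits the precision. Genes were matched by symbol to the platform annotation and the RefSeq R64 table; sequences were not used here.

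All 17 arrays entered 1 linear model with the 6 groups as terms, fitted in limma 3.58.1 under R 4.3.3 by lmFit and eBayes. The 10 contrasts between groups and the difference of time courses were tested two-sided, adjusted by Benjamini-Hochberg over 5449 genes and called at an adjusted p under 0.05. Lists were described by counts and medians with no list test, and the scripts were tested on simulated data. The named genes were the 8 members, up to 3 called genes per list and comparison in order of size, and the 3 most similar genes per member; ICL1 at fermentation 60 h and the genes that went against the rest of their list (CIT2, GND1, MPC1, CLN2) were added after their values were seen. The members and lists were chosen with earlier results of these data known. Pairing by replicate letter was described but not tested: 14 of 40 same-letter pairs of arrays had residual correlations over 0.1 (-0.152 to 0.777). Pairs of different letters were not compared, and the letters were not taken to pair the arrays. The alternatives left out the dimmest 25% of genes, single arrays or sets of arrays, changed the centring or normalization, weighted the arrays, fitted only the groups compared, or added the replicate letter or the 3′ to 5′ gap as a term.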

Additional observations from a re-analysis of the deposited data

How the results depend on the processing

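No called difference of the 8 genes changed sign under any alternative run. Of 997 values under alternatives that kept all groups compared, 915 kept direction and side of the threshold, 12 lost the call, 49 gained it and 21 turned sign. Of 544 values with 1 array left out, 494 kept both, 19 lost the call, 10 gained it and 21 turned sign. The causes were not tested. With 2 or 3 samples of one vessel per group, and the 6 arrays of propagation 8 h and 30 h standing apart, the number of arrays limits what can be seen, and an adjusted p above the threshold does not show that levels were equal.

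The number of the 8 genes that passed moved as follows. In the order fermentation 60 h against 8 h, 60 h against 30 h, propagation 30 h against 0 h and fermentation 8 h against propagation 0 h, the counts were 1, 1, 4 and 3 as deposited and 5, 2, 7 and 7 with array weights, which also gave 1 for fermentation 30 h against 8 h and 2 for the difference of time courses (0 each as deposited). In that order, limma called 15.9%, 4.31%, 67.3% and 28.1% of all genes as deposited, and 66.2%, 37.2%, 77.1% and 58.4% with array weights. The weighted shares were 5.74% for fermentation 30 h against 8 h and 6.4% for the difference of time courses. Fermentation 8 h B and C had weights of 11.2 and 8.4, and propagation 0 h A had 0.0627. Without the 3 arrays of large 3′ to 5′ gap the counts of the 8 genes were 2, 2, 7 and 5, with 5 in place of 2 for propagation 30 h against 8 h. The shares of all genes were then 21.8%, 11.7%, 75% and 34.3%, with 16.8% for propagation 30 h against 8 h. With the gap as a covariate the first 3 counts were 2, 2 and 7, where 24.9%, 7.67% and 72.2% of all genes were called. Fitting only the groups compared gave 2 for fermentation 60 h against 8 h, 1 for fermentation 8 h against propagation 0 h and 3 in place of 7 for fermentation 60 h against propagation 0 h. In these fits 29.5%, 15.3% and 23.8% of all genes were called, in that order. Recentring gave 1 in place of 2 for propagation 30 h against 8 h, where 3.85% of all genes were called. Leaving out single arrays gave 0 to 1 for fermentation 60 h against 30 h, 4 to 7 for fermentation 60 h against propagation 0 h, 4 to 7 for propagation 30 h against 0 h, 2 to 5 for fermentation 8 h against propagation 0 h and 0 to 2 for propagation 30 h against 8 h. Among the smaller moves, it gave 5 to 7 for propagation 8 h against 0 h. There ALD3 (higher) and ACH1 (lower) also gained calls with array weights, without the arrays of large gap and with the gap as a covariate.

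The letters were not taken to pair the arrays, although 14 of 40 same-letter pairs had residual correlations over 0.1, up to 0.777. A replicate block changed the counts of the 8 genes as follows. It gave 6 in place of 5 for propagation 8 h against 0 h (ACH1 -0.81, adjusted p = 0.0398), 5 in place of 4 for propagation 30 h against 0 h (ACH1 -0.81, adjusted p = 0.0395), 3 in place of 2 for propagation 30 h against 8 h (ALD4 0.93, adjusted p = 0.0453) and 4 in place of 3 for fermentation 8 h against propagation 0 h (ACH1 1.46, adjusted p = 0.00352). Of all genes, 69.6%, 69.6%, 6.53% and 30.9% were called with the block in these comparisons, in that order. The block changed no other count of the 8 genes.

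None of the differences that turned sign passed the test on either side. After recentring these were ACS2 at -0.043 (fermentation 60 h against 8 h), ALD4 at -0.088 and ALD6 at -0.16 (fermentation 60 h against 30 h), ALD2 at -0.036 (propagation 30 h against 8 h) and ACS1 at 0.13 (time courses). After quantile normalization they were ALD5 at 0.012 (fermentation 30 h against 8 h) and ALD2 at -0.021 (propagation 30 h against 8 h). With array weights they were ALD2 at 0.049 (propagation 8 h against 0 h) and 0.32 (30 h against 0 h), ACH1 at 0.037 (propagation 30 h against 8 h) and ACS1 at -0.14 (fermentation 8 h against propagation 0 h). Without the arrays of large gap, ALD2 gave 0.085 (propagation 8 h against 0 h) and 0.21 (30 h against 0 h), and ACS1 -0.14 (fermentation 8 h against propagation 0 h). With the gap as a covariate they were ALD6 at -0.076 (fermentation 30 h against 8 h), ALD2 at -0.036 and ACS2 at 0.12 (fermentation 60 h against 30 h), ALD2 at 0.10 and 0.22 (propagation 8 h and 30 h against 0 h), ACH1 at 0.012 (propagation 30 h against 8 h) and ACS1 at -0.017 (fermentation 8 h against propagation 0 h). With 1 array left out, the ranges that crossed 0 were -0.27 to 0.90 for ACH1 and -0.18 to 0.30 for ACS2 (fermentation 60 h against 8 h), -0.42 to 0.077 for ALD3, -0.086 to 0.25 for ALD4 and -0.043 to 0.084 for ALD6 (60 h against 30 h), -0.15 to 0.36 for ACS1 (fermentation 8 h against propagation 0 h), -0.056 to 0.45 for ALD5 (fermentation 60 h against propagation 0 h), -0.62 to 0.085 and -0.49 to 0.21 for ALD2 (propagation 8 h and 30 h against 0 h), -0.18 to 0.26 for ACH1 and -0.061 to 0.27 for ALD2 (propagation 30 h against 8 h), and -0.60 to 0.41 for ACS1 and -0.012 to 0.34 for ALD2 (time courses).

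Counts over all genes moved by more than 1.5 times in some settings. Fermentation 60 h against 8 h had 864 as deposited, 3606 with array weights, 1609 with only the groups compared, 1357 with the covariate and 440 with fermentation 8 h B and C averaged. Fermentation 60 h against 30 h had 235, and 2025, 561, 418, 636 (without the arrays of large gap), 141 (quantile) and 143 (without propagation 8 h and 30 h). Propagation 30 h against 8 h had 273, 602 with the covariate, 514 with array weights and 914 without the arrays of large gap. With array weights and with only the groups compared, fermentation 8 h against propagation 0 h had 3184 and 833 instead of 1529, and fermentation 60 h against propagation 0 h had 3564 and 1299 instead of 2236. Fermentation 30 h against 8 h had 313 with array weights instead of 0, and the difference of time courses had between 7 and 349 instead of 15 in settings other than leaving out a single array.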
